A study of Mus musculus with 6 samples.

Results

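The genes of the Notch pathway, with the Hes and Hey factors that act downstream of it, were followed in E8.5 mouse heads that lacked the H3K4me2/3 demethylase Jarid1b. They were 35 named genes, each taken where the platform annotation gave a probe set that symbol alone. All 35 were measured, by 39 of the 21789 probe sets tested, which together stand for 19938 genes. A gene with more than 1 probe set was represented by its brightest on average. The arrays were of the Affymetrix mouse Gene 1.0 ST design, which reports an intensity per probe set from probes spread along the transcript. There were 3 pools of Jarid1b knockouts and 3 pools of Jarid1b heterozygotes, with 4 heads in each pool, all on a C57BL/6 background and with no treatment. The Jarid1b allele had lost a loxP-flanked exon in the germ line after a cross with Cmv-cre mice. The heterozygotes therefore also carried a deleted allele beside an intact one, and wild-type heads were not part of the comparison. Every value below is a log2 of the deposited RMA intensity, and every change is a log2 fold change, knockout minus heterozygote, with its standard error (SE). Intensities of different probe sets are not on a common scale, so that no gene's level is set against another's.

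Notch receptors are cleaved when a Delta or Jagged ligand on a neighboring cell pulls on them, and the freed intracellular part joins the DNA-binding protein Rbpj and a Mastermind coactivator in the nucleus. Among the genes this complex switches on are the Hes and Hey repressors, which hold neural progenitors in an undifferentiated state by repressing proneural factors. In the early head the pathway is also used by the first blood vessels, the heart field and, further caudally, by the segmentation clock of the presomitic mesoderm. In a pool of whole heads, fewer cells of a type and less RNA per cell cannot be told apart.

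Rbpj binds a short DNA motif, GTGGGAA, which reads TTCCCAC on the opposite strand. The 250 bases before each annotated start were searched for it on both strands in the RefSeq promoter sequences of the mouse build GRCm38.p6, which hold 28 of the 35 genes. Hes1, Hes3, Hey1, Heyl, Mfng, Mib1 and Dtx4 have no window there. It was found in 5 of the 36 windows of these genes (13.9%), against 1779 of 32851 windows of all genes (5.42%). A match is a description of the sequence and not of binding. Of the 5 genes, the Hes/Hey factors Hes5, Hes7 and Hey2 and the glycosyltransferase Lfng are known targets of the pathway, and their matches are shown here because the results turn on such targets. Each stretch is 29 bases long, 5′ to 3′ on the gene's strand, with the motif in capitals, and the first base of the motif lay 226 and 83 bases before the start in Hes5, 180 in Hes7, 207 in Hey2 and 109 in Lfng.
Hes5, chr4:154960686-154960714, plus strand: gggcgagcgcgTTCCCACagcccggacat
Hes5, chr4:154960829-154960857, plus strand: ggccgccgagtGTGGGAAcggccgcggcg
Hes7, chr11:69120262-69120290, plus strand: cctcccctcacTTCCCACatttggggcta
Hey2, chr10:30842973-30843001, minus strand: gcgcggtggcaTTCCCACgcctctgccaa
Lfng, chr5:140607221-140607249, plus strand: ccgtatcccacGTGGGAAggagagatctc
The other match lay 89 bases before a start of Psen2, a catalytic subunit of the protease that cleaves the receptors. For Hey2 and Lfng the whole window before the start is given, because each ends at the outermost annotated start of its gene. The motif is again in capitals.
Hey2, chr10:30842784-30843033, minus strand: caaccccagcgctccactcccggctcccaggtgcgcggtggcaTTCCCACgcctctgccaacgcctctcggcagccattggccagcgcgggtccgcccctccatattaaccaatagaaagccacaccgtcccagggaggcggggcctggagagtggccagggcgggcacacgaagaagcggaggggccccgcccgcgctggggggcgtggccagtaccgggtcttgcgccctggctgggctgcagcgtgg
Lfng, chr5:140607091-140607340, plus strand: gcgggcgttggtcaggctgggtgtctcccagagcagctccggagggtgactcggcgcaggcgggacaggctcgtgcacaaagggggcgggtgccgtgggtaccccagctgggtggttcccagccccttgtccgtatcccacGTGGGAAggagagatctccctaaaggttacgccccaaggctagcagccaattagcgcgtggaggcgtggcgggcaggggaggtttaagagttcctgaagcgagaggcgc

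The targeted gene, listed under its current symbol Kdm5b, checked the labels. Its log2 intensity was 7.63, 7.47 and 7.71 in the knockout pools, against 9.17, 9.12 and 9.16 in the heterozygote pools, a log2 fold change of -1.55 (SE 0.07, limma adjusted p = 6.29e-04). It is not known here whether the probes cover the exon that was removed, so that the check shows lower signal and not the deletion itself.

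No gene of the pathway passed an adjusted p of 0.05 over all probe sets in limma, whose smallest adjusted p among them was 0.421 for Hes5. Over the whole array, 1 of 21789 probe sets passed (0.00459%), which was Kdm5b. At an unadjusted p under 0.05, the Notch target Hes5 and the ligand Jag2 had a higher mean in knockouts, 2 of 35 genes or 5.71%, against 5.97% of all probe sets. In the other direction, the Notch target Hes1 and the Notch inhibitor Numb had a lower mean, again 2 of 35 or 5.71%, against 4.66% of all probe sets. The share of nominal calls among the pathway genes was thus near that of the array in both directions. Of the 35 log2 fold changes, 19 were positive and 16 negative, with a median of 0.0023 beside -0.00072 for all probe sets. They ran from -0.20 for Hes1 to 0.23 for Hes5. The 95% confidence intervals of all 35 lay between -0.39 and 0.44, so that none reached a decrease of more than 1.31-fold or an increase of more than 1.35-fold. For a single gene, an exact two-sided permutation test of 3 pools against 3 cannot give a p below 0.1.

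**Figure D1:**
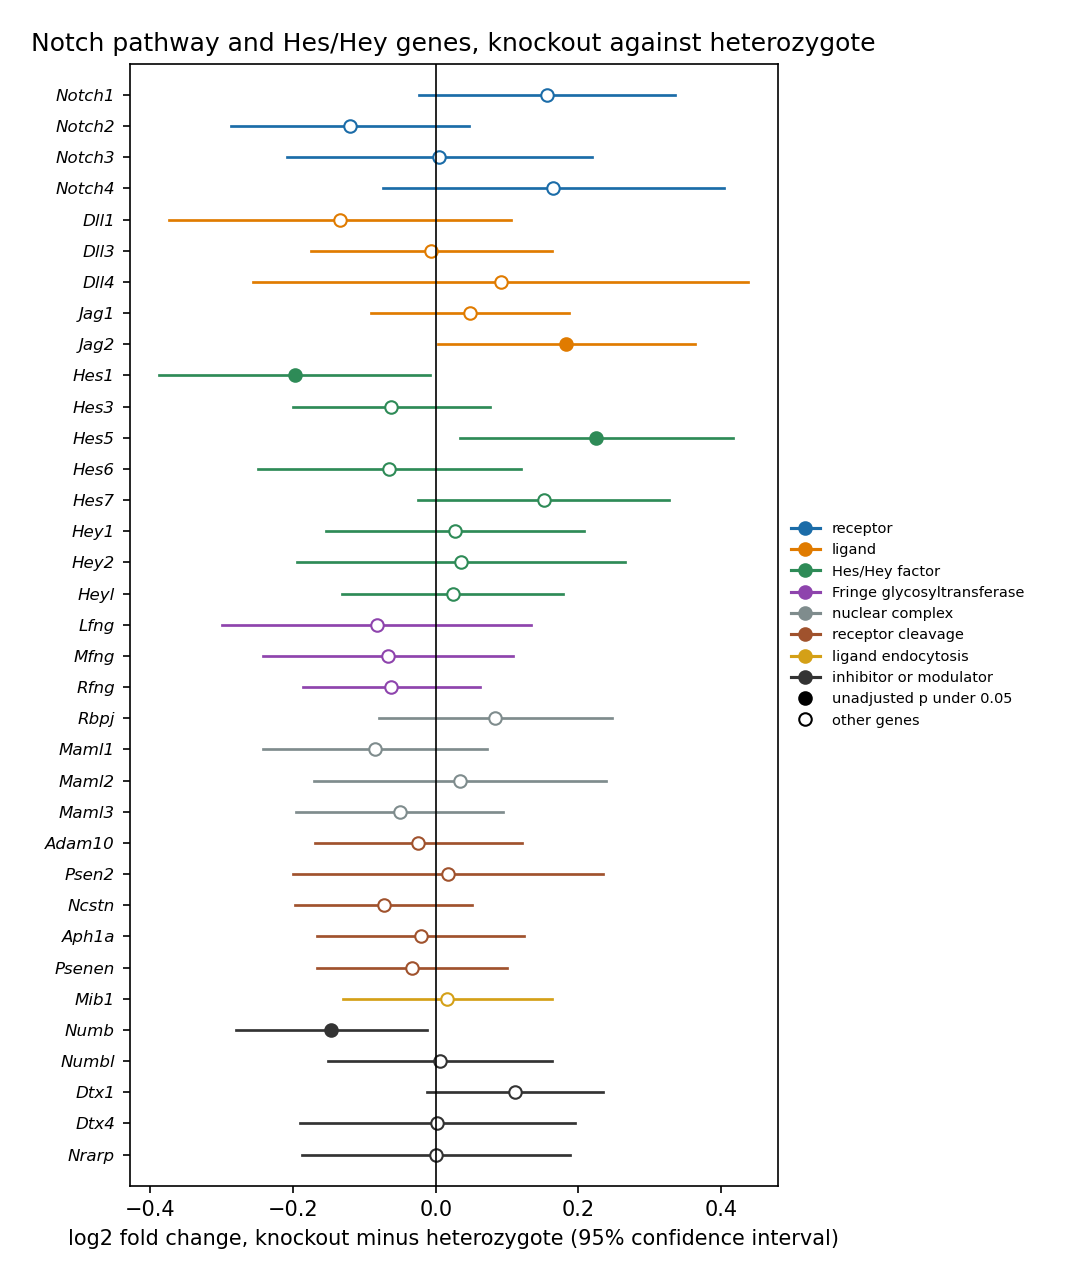
Log2 fold change, knockout minus heterozygote, of the 35 Notch pathway and Hes/Hey genes (points) with the 95% confidence interval from limma (lines), colored by role and filled where the unadjusted p was under 0.05. The points run from -0.20 for Hes1 to 0.23 for Hes5, and the intervals of 31 genes cross 0.

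The receptors did not move together. Notch1, the main receptor of the neural plate, had log2 intensities of 7.54, 7.44 and 7.35 in knockout pools, against 7.34, 7.36 and 7.16 in heterozygote pools. Knockout replicate 3 lay below heterozygote replicate 2, and the log2 fold change was 0.16 (SE 0.08, limma adjusted p = 0.515). Notch2, a receptor broadly used in the embryo, was at 8.29, 8.20 and 8.05 in knockouts, against 8.26, 8.30 and 8.35 in heterozygotes. Its change was -0.12 (SE 0.07), and knockout replicate 1 lay among the heterozygotes. Notch3, a receptor best known from vascular smooth muscle and also made by neural progenitors, was at 7.46, 7.28 and 7.10 in knockouts, against 7.30, 7.30 and 7.22 in heterozygotes. The means were nearly equal, at a change of 0.01 (SE 0.09), while the knockout pools spread more widely on either side. Notch4, the endothelial receptor, was at 6.00, 6.17 and 6.26 in knockouts, against 6.00, 6.14 and 5.79 in heterozygotes. Its change was 0.17 (SE 0.10), with heterozygote replicate 3 below all other pools. The adjusted p of the 4 receptors in limma lay between 0.515 and 0.989.

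Among the ligands, Jag2 alone had an unadjusted p under 0.05. Jag2, a Jagged ligand, was at 6.08, 5.99 and 6.04 in knockout pools, against 5.75, 5.81 and 6.01 in heterozygote pools. Heterozygote replicate 3 reached the knockout range while the other heterozygotes lay below it. The log2 fold change was 0.18 (SE 0.08), with a 95% interval from 0.0031 to 0.36 and a limma adjusted p of 0.465. Its paralog Jag1, a ligand of the neural tube and the vessel wall, was at 8.66, 8.57 and 8.53 in knockouts, against 8.53, 8.60 and 8.49 in heterozygotes, a change of 0.05 (SE 0.06). Dll1, the Delta ligand of new neurons and of the presomitic mesoderm, was at 6.12, 6.40 and 6.04 in knockouts, against 6.20, 6.42 and 6.33 in heterozygotes. Replicate 2 was the highest of each genotype, and the change was -0.13 (SE 0.10). Dll3, a Delta protein that acts inside the cell on Notch in the segmentation clock, was the only gene of the pathway among the dimmest 7263 probe sets. It was at 5.23, 5.36 and 5.19 in knockouts, against 5.36, 5.17 and 5.27 in heterozygotes, a change of -0.01 (SE 0.07). Dll4, the ligand of arterial and tip cells, was at 6.47, 6.26 and 6.15 in knockouts, against 6.38, 6.37 and 5.86 in heterozygotes. It had the widest interval of the pathway, from -0.26 to 0.44 around a change of 0.09 (SE 0.15), with heterozygote replicate 3 far below the other heterozygotes. Notch4 and Dll4 thus shared their lowest pool, and Notch1, Jag1, Rbpj, Mib1 and Nrarp were also lowest there. In all, that pool was lowest for 7 pathway genes (20%), near its share of 16.8% among all probe sets. The summed linear intensity of 16 endothelial markers was 2663 in heterozygote replicate 3, beside 2595 and 2738 in heterozygote replicates 1 and 2. The part of endothelium in the values of Notch4 and Dll4 was not tested.

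**Figure D2:**
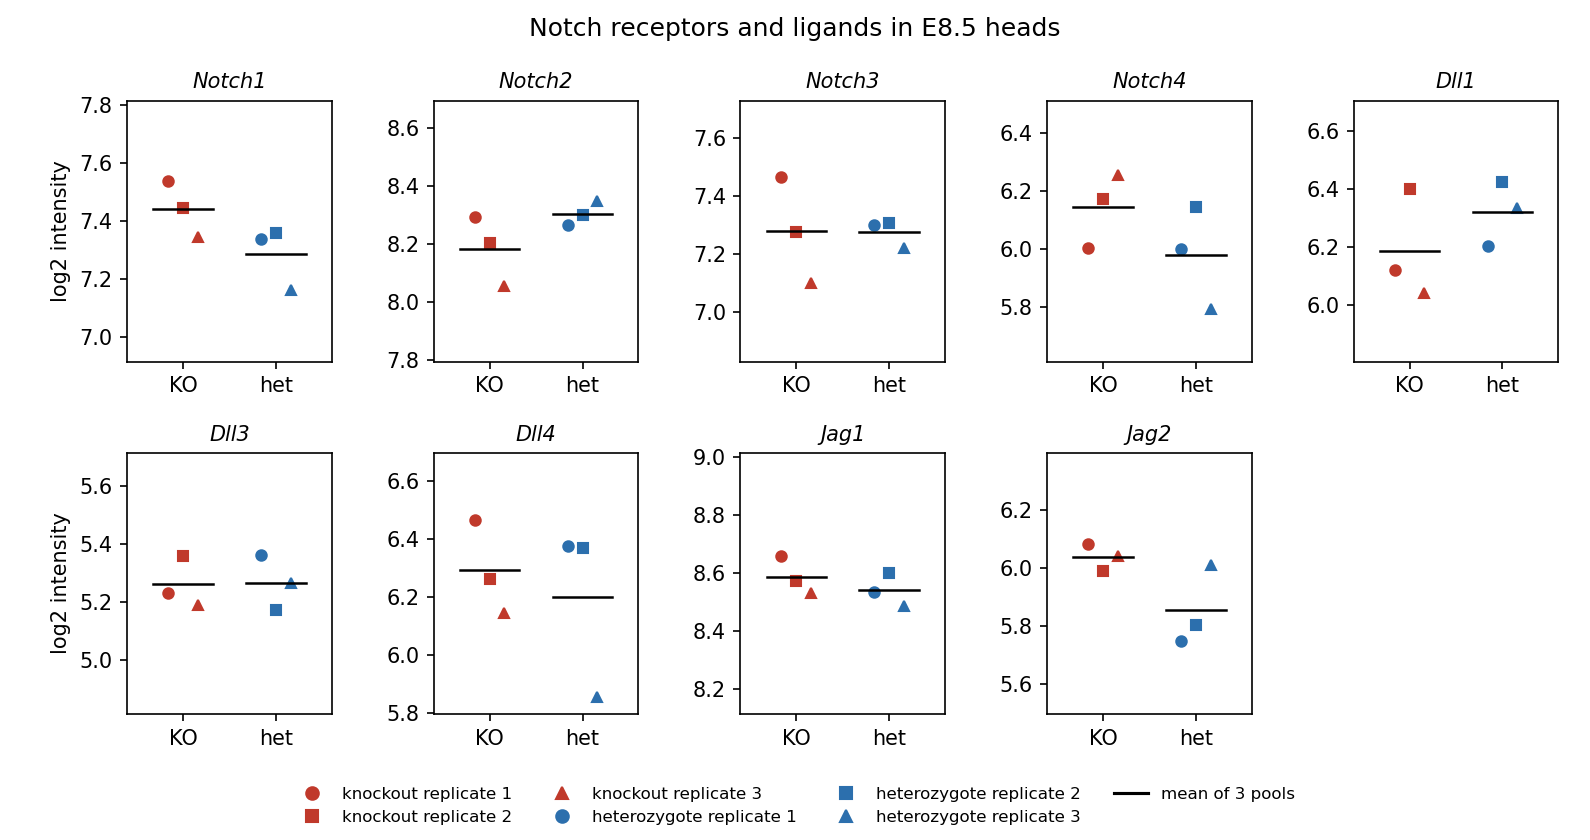
Log2 intensity of the 4 receptors and 5 ligands in each pool, with knockouts in red, heterozygotes in blue, a symbol for each replicate and the mean of 3 pools as a black line; each panel spans the same range of log2 intensity. Genotypes overlap in every panel, and heterozygote replicate 3 lies lowest for Dll4 (5.86) and Notch4 (5.79).

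The Hes and Hey factors held the extremes of the pathway in both directions. Hes5, the repressor most closely tied to Notch activity in neural progenitors, was at 7.39, 7.60 and 7.64 in knockout pools, against 7.22, 7.40 and 7.34 in heterozygote pools. Only knockout replicate 1 and heterozygote replicate 2 overlapped, at 7.39 and 7.40. The log2 fold change was 0.23 (SE 0.08), or 1.17-fold, with a 95% interval from 0.03 to 0.42 (limma unadjusted p = 0.0268, adjusted p = 0.421). Hes1, the repressor that is also made in signalling centers and can be driven without Notch, was at 9.29, 9.43 and 9.17 in knockouts, against 9.39, 9.53 and 9.56 in heterozygotes. Again a single pair overlapped, knockout replicate 2 at 9.43 and heterozygote replicate 1 at 9.39. The change was -0.20 (SE 0.08), or 1.15-fold lower, with an interval from -0.39 to -0.01 (limma unadjusted p = 0.0433, adjusted p = 0.458). Both factors thus had intervals that excluded 0 on opposite sides.

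Hes7, the oscillating repressor of the segmentation clock, was at 5.90, 6.05 and 6.09 in knockouts, against 5.97, 5.78 and 5.83 in heterozygotes, a change of 0.15 (SE 0.08, limma adjusted p = 0.516). Only knockout replicate 1 and heterozygote replicate 1 overlapped, at 5.90 and 5.97. The summed intensity of 11 presomitic and somite markers ran from 1113 to 1291 in knockouts and from 1155 to 1274 in heterozygotes, ranges that overlap. Single markers of that list lay higher in knockouts: the groups of Wnt3a at 0.33 (SE 0.07), Tbx6 at 0.23 (SE 0.07) and Uncx at 0.15 (SE 0.07) did not overlap, 3 of 11 or 27.3%, against 8.03% of all probe sets. Wnt3a and Tbx6 had an unadjusted p under 0.05, 2 of 11 or 18.2%, against 5.97%, and no marker of the list passed an adjusted p of 0.05 in limma. Of the 11 changes in the list, 6 were positive and 5 negative, with a median of 0.025. The lowest was that of Tcf15, at -0.14 (SE 0.09). The part of presomitic tissue in the value of Hes7 was not tested. Hes3, a repressor of the midbrain-hindbrain boundary and early neural plate, was at 8.13, 8.07 and 8.10 in knockouts, against 8.11, 8.25 and 8.13 in heterozygotes (change -0.06, SE 0.06). Hes6, which opposes Hes1 and favors differentiation, was at 6.95, 6.88 and 7.11 in knockouts, against 6.95, 7.04 and 7.14 in heterozygotes (change -0.07, SE 0.08). Neither had groups that stood apart. Hey1, a factor of the vessels, the heart and the neural tube, was at 8.47, 8.38 and 8.20 in knockouts, against 8.33, 8.36 and 8.27 in heterozygotes. Hey2, of the ventricle and the arteries, was at 7.07, 7.09 and 6.73 in knockouts, against 6.95, 6.95 and 6.87 in heterozygotes. Knockout replicate 3 was the lowest of all pools for both of these genes. Heyl, which is found in smooth muscle and somites, was at 6.00, 5.89 and 6.10 in knockouts, against 5.99, 5.94 and 6.00 in heterozygotes. The change was 0.03 (SE 0.08) for Hey1, 0.04 (SE 0.10) for Hey2 and 0.02 (SE 0.07) for Heyl. Of the 5 genes with an Rbpj motif in a window, Hes5 was at 0.23, Hes7 at 0.15, Hey2 at 0.04, Psen2 at 0.02 and Lfng at -0.08.

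**Figure D3:**
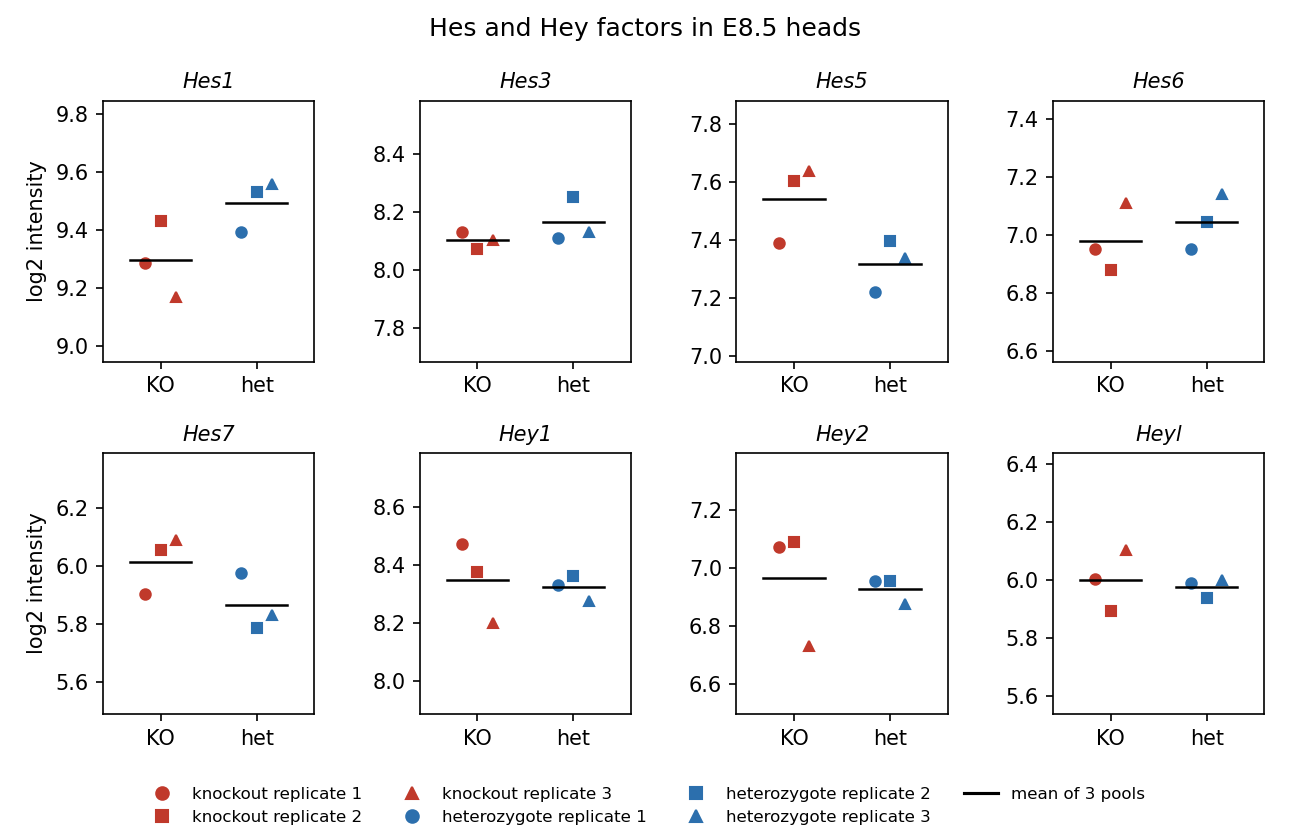
Log2 intensity of the 8 Hes and Hey factors in each pool, with knockouts in red, heterozygotes in blue, a symbol for each replicate and the mean of 3 pools as a black line; each panel spans the same range of log2 intensity. Hes1 has a lower mean and Hes5 and Hes7 a higher mean in knockouts, each with a single overlapping pair of pools, and the other 5 genes overlap more widely.

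The Fringe enzymes add sugars to Notch and so set which ligands it answers to. All 3 had a negative change, -0.08 for Lfng, -0.07 for Mfng and -0.06 for Rfng, with standard errors between 0.05 and 0.09, and none had an unadjusted p under 0.05. Lfng was at 8.39, 8.40 and 8.09 in knockouts, against 8.44, 8.38 and 8.30 in heterozygotes, so that its value rested on knockout replicate 3. Without that pool the change of Lfng was 0.02. In the nuclear complex, Rbpj averaged 9.47 ± 0.10 in knockouts and 9.39 ± 0.08 in heterozygotes (SD, n = 3 each), a change of 0.08 (SE 0.07). A second, dim probe set of Rbpj went the other way, at -0.13 (SE 0.13). The coactivators Maml1, Maml2 and Maml3 had changes of -0.08, 0.03 and -0.05. A second probe set of Maml2 was at 6.69, 6.67 and 6.74 in knockouts, against 6.66, 6.67 and 6.58 in heterozygotes, and its groups did not overlap at a change of 0.06 (SE 0.05).

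Receptor cleavage begins with the sheddase Adam10 and ends with the gamma-secretase complex, of which Psen2, Ncstn, Aph1a and Psenen were followed. Their changes lay between -0.07 for Ncstn and 0.02 for Psen2, with standard errors between 0.05 and 0.09. Ncstn, the subunit that receives the substrate, was at 9.22, 9.14 and 9.12 in knockouts, against 9.22, 9.22 and 9.26 in heterozygotes. Every knockout pool lay below every heterozygote pool, by a very narrow margin for knockout replicate 1, and the change was -0.07 (SE 0.05, limma adjusted p = 0.648). Second probe sets of Aph1a and Psenen gave -0.05 and -0.03, beside -0.02 and -0.03 for the first. Mib1, the ubiquitin ligase that lets ligands be pulled into the sending cell, was at 9.15, 9.14 and 9.02 in knockouts, against 9.11, 9.13 and 9.01 in heterozygotes, a change of 0.02 (SE 0.06).

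Of the inhibitors and modulators, Numb and Dtx1 separated the genotypes. Numb, an adaptor that removes Notch from the cell surface, was at 8.88, 8.83 and 8.74 in knockout pools, against 9.00, 8.94 and 8.95 in heterozygote pools. All knockouts lay below all heterozygotes, with a change of -0.15 (SE 0.06), or 1.11-fold lower, and a 95% interval from -0.28 to -0.01 (limma unadjusted p = 0.0355, adjusted p = 0.440). Its paralog Numbl was at 6.09, 6.29 and 6.26 in knockouts, against 6.18, 6.26 and 6.18 in heterozygotes, a change of 0.01 (SE 0.07). Dtx1, a ubiquitin ligase of the Deltex family that binds Notch, was at 6.32, 6.42 and 6.38 in knockouts, against 6.24, 6.27 and 6.27 in heterozygotes. All knockouts lay above all heterozygotes, at a change of 0.11 (SE 0.05, limma adjusted p = 0.504). Its relative Dtx4 averaged 7.56 ± 0.13 in knockouts and 7.55 ± 0.09 in heterozygotes (SD, n = 3 each). Nrarp, a feedback inhibitor that Notch itself induces, was at 6.24, 6.29 and 6.34 in knockouts, against 6.26, 6.45 and 6.16 in heterozygotes, with equal means to 2 decimals. Over the 35 genes, groups without overlap were seen for Dtx1 in the upward direction (2.86%, against 8.03% of all probe sets) and for Numb and Ncstn in the downward direction (5.71%, against 9.03%). Both shares lay below those of the array.

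A list of 49 further genes of the pathway, of which 45 were measured, was read beside these. None passed an adjusted p of 0.05 in limma. At an unadjusted p under 0.05 none was higher and 3 were lower, Dtx2 at -0.19 (SE 0.05), Dtx3l at -0.15 (SE 0.06) and the Groucho corepressor Tle1, with which Hes factors repress their targets, at -0.15 (SE 0.05). The 3 lower genes were 6.67% of the list, against 4.66% of all probe sets. In each of the 3, all knockout pools lay below all heterozygote pools, as they did for Pofut1 at -0.12 and Kat2a at -0.06, 5 of 45 or 11.1%, against 9.03%. Tle2 at 0.11 was the only gene of the list with all knockout pools above, 1 of 45 or 2.22%, against 8.03%. Dtx2 was at 7.18, 7.21 and 7.26 in knockouts, against 7.43, 7.38 and 7.40 in heterozygotes (limma adjusted p = 0.391). The median over the 45 genes was -0.019, and 27 of them had a negative change. The measured genes of the Deltex family were Dtx1 at 0.11, Dtx4 at 0.00, Dtx3l at -0.15, Dtx2 at -0.19 and Dtx3 at -0.19 (SE 0.09), the last without an unadjusted p under 0.05. Of 9 measured proneural factors and cell cycle inhibitors that Hes factors are known to repress, 7 had a positive and 2 a negative change, with a median of 0.079. Of these, Neurog1, a proneural factor of the cranial sensory ganglia, was at 5.72, 5.65 and 5.68 in knockouts, against 5.53, 5.54 and 5.33 in heterozygotes. It was the only 1 of the 9 with a higher mean at an unadjusted p under 0.05 (11.1%, against 5.97% of all probe sets), at 0.21 (SE 0.07, limma adjusted p = 0.413), and 5 of the 9 lay among the dimmest 7263 probe sets, where the median of the array was 0.056.

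The change of a probe set depended on its level across the whole array. Ranked by mean intensity and divided into 3 tiers of 7263, all probe sets had medians of 0.056 in the dimmest, -0.00037 in the middle and -0.035 in the brightest tier. The pathway genes were spread unevenly, with 1 in the dimmest, 19 in the middle and 15 in the brightest tier. Those in the middle tier had a median of 0.024, with 15 of 19 positive, against 3620 of all 7263 probe sets there. Those in the brightest tier had a median of -0.051, with 11 of 15 negative, against 5102 of all 7263 there. Hes5 and Jag2 were in the middle tier, where 2 of 19 genes (10.5%) had a higher mean at an unadjusted p under 0.05, against 6.72% of that tier, and 0 of 19 a lower one, against 5.71%. Hes1 and Numb were in the brightest tier, where 2 of 15 (13.3%) had a lower mean, against 6.71% of that tier, and 0 of 15 a higher one, against 0.716%. After subtraction of the median of their tier, the changes were 0.23 for Hes5, 0.18 for Jag2, -0.16 for Hes1 and -0.11 for Numb. After quantile normalization Hes1 was at -0.16, Jag2 at 0.16 and Numb at -0.10, none with an unadjusted p under 0.05. Hes5 was then at 0.27 and Notch1 at 0.19, both under it.

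**Figure D4:**
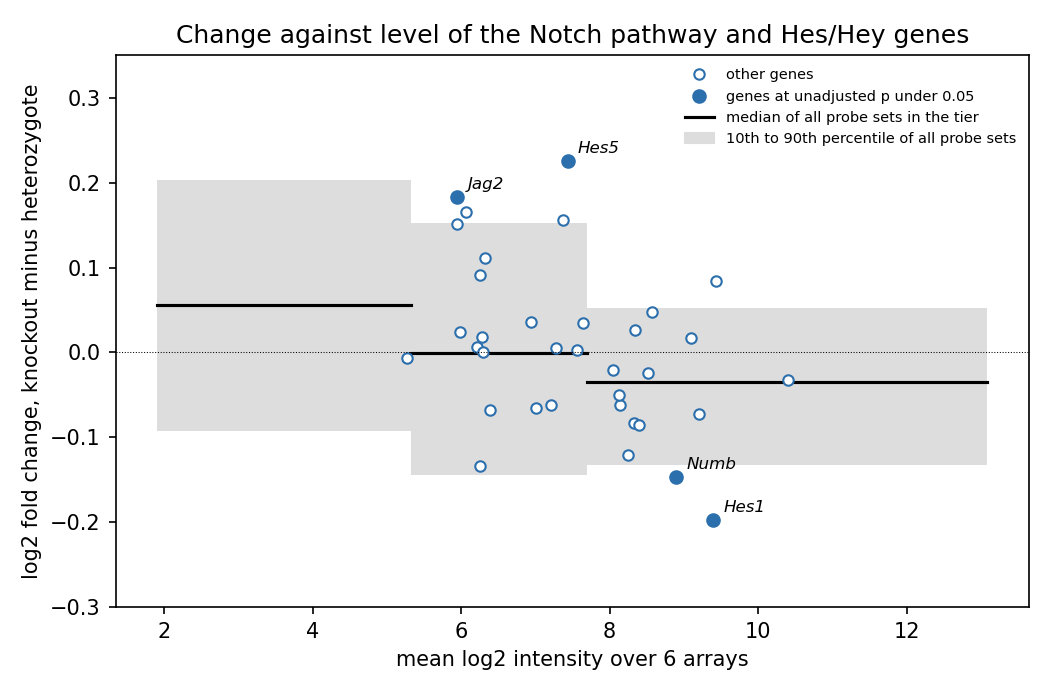
Log2 fold change of each of the 35 genes (circles, filled where the unadjusted p was under 0.05) against its mean log2 intensity over 6 arrays, with the median (black line) and the 10th to 90th percentile (gray) of all probe sets in each tier of intensity. The black line steps from 0.056 in the dimmest to -0.035 in the brightest tier, with Notch1, Notch4, Jag2 and Hes5 above the gray band of the middle tier, and Rbpj above and Hes1 and Numb below that of the brightest.

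Single pools carried much of the spread. Knockout replicate 3 was the lowest of the 6 pools for 15 of the 35 genes (42.9%), among them Notch2, Notch3, Dll1, Hes1, Hey1, Hey2, Lfng and Numb, while it was lowest for 20.6% of all probe sets. Knockout replicate 1 was lowest for Numbl alone (2.86%, against 17.9% of all probe sets). Marker sums of visceral endoderm, endothelium and neurons were lowest in knockout replicate 3, while the presomitic and somite sum was highest there, at 1291. The 12 visceral endoderm genes, all measured, summed to 3938 there, against 8710 and 8722 in the other knockouts and 7488 to 8822 in heterozygotes. The 16 endothelial markers, all measured, summed to 2350 in knockout replicate 3, below the 2559 to 2826 of the other knockouts and the 2595 to 2738 of heterozygotes. The lowest log2 intensity of any marker in any pool was 5.65 for visceral endoderm and 5.03 for endothelium, so that none was at 0. The part of these tissues in the values of the pathway genes was not tested. Of 12 primitive blood genes, 10 were measured, and they summed to 612, 2098 and 791 in knockouts, against 525 to 611 in heterozygotes. Without knockout replicate 3, 2 genes had a higher mean at an unadjusted p under 0.05, which were Notch1 and Hey2, and 0 a lower one. Without knockout replicate 2, where the blood genes were highest, the counts were 0 higher and 2 lower, which were Dll1 and Hes1. The neural ectoderm markers, 16 of 16 measured, summed to between 5866 and 6165 in knockouts and between 5718 and 6287 in heterozygotes. Within that list, En2 at 0.37 (SE 0.09), Egr2 at 0.24 (SE 0.08), Zic1 at 0.21 (SE 0.08) and Sox1 at 0.20 (SE 0.08) had a higher mean at an unadjusted p under 0.05, 4 of 16 or 25.0%, against 5.97% of all probe sets. Six3 at -0.17 (SE 0.07) had a lower one, 1 of 16 or 6.25%, against 4.66%. The groups did not overlap for En2 and Egr2 in the upward direction (12.5%, against 8.03% of all probe sets). In the downward direction they did not overlap for Otx2 at -0.08 (SE 0.05) and Six3 (12.5%, against 9.03%). None of the 16 passed an adjusted p of 0.05 in limma. The changes of these 4 markers were near to or above that of Hes5 at 0.23, and their part in it was not tested.

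The pools also differed in their level of Y-linked genes. The log2 intensities of 3 Y-linked genes summed to 22.65, 23.81 and 22.57 in knockouts, against 18.73, 23.91 and 18.47 in heterozygotes, so that heterozygote replicate 2 alone of its group matched the knockouts. With this sum as a covariate, Hes1 was at -0.24 (SE 0.10), Jag2 at 0.23 (SE 0.10), Hes5 at 0.16 (SE 0.10) and Numb at -0.14 (SE 0.08). None of the 35 genes then had an unadjusted p under 0.05, and the 4 kept their sign. When each pool was left out in turn, the change of Hes5 stayed between 0.18 and 0.30, that of Jag2 between 0.13 and 0.26, that of Hes1 between -0.27 and -0.13 and that of Numb between -0.18 and -0.11. The unadjusted p of Hes5 stayed under 0.05 only without knockout replicate 1 or heterozygote replicate 2, that of Hes1 only without knockout replicate 2 or heterozygote replicate 1, that of Jag2 only without heterozygote replicate 3 and that of Numb only without knockout replicate 1.

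**Figure D5:**
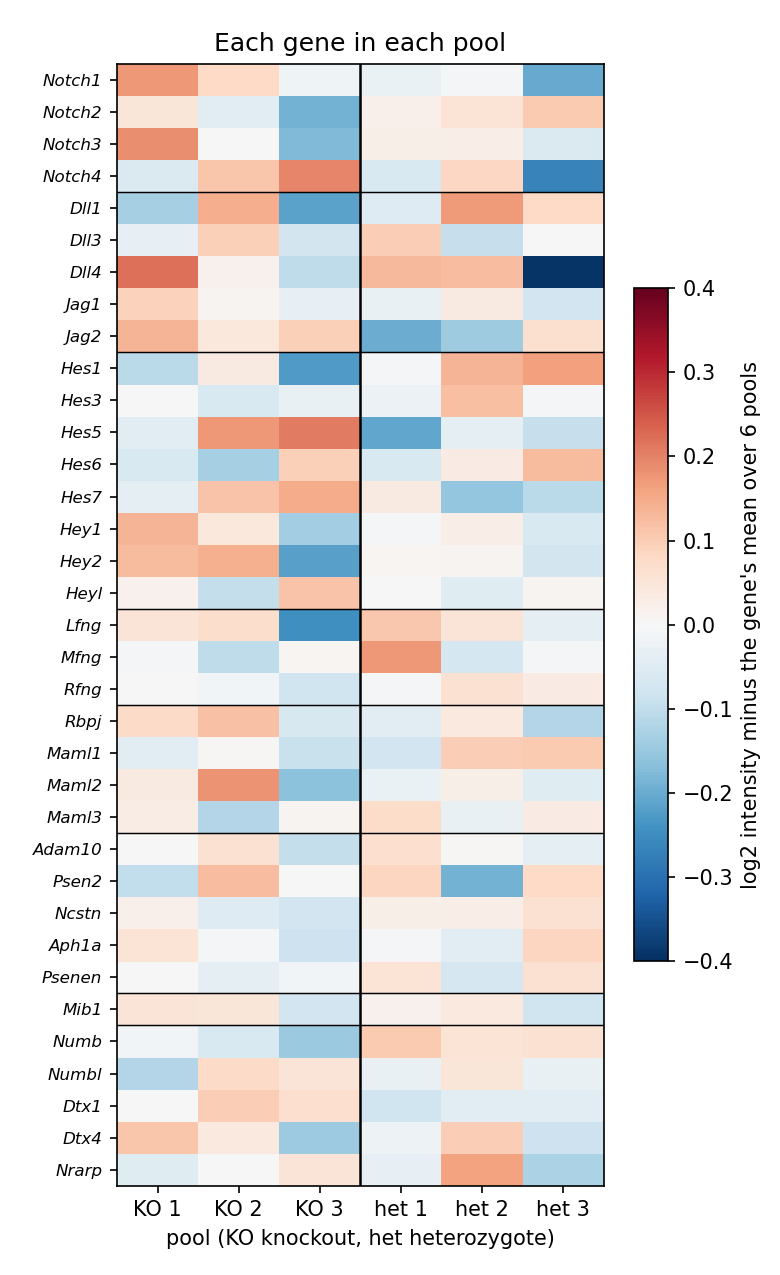
Log2 intensity of each of the 35 genes in each pool as the deviation from its mean over the 6 pools (red above, blue below), with knockouts left and heterozygotes right of the vertical line and the roles divided by horizontal lines. Knockout replicate 3 is the lowest pool for 15 genes and heterozygote replicate 3 for 7, with the darkest cell at Dll4.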

How the data were processed

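RNA of E8.5 heads was measured on 6 Affymetrix arrays, 3 of Jarid1b knockout and 3 of heterozygote pools, with groups and replicate numbers taken from the sample labels. The authors deposited intensity values from RMA, for which the submitters' processing notes name Affymetrix Power Tools (version: not given in the sources used here), and RMA corrects background, normalizes between arrays and summarizes probes. The values are linear, and their log2 was taken. Of 35556 rows, 21789 carry 1 gene symbol in the platform annotation, 1621 several and 12146 none listed, and only the first kind was tested. Genotypes were compared with limma 3.58.1 (lmFit, eBayes, no covariate) in R 4.3.3, with Benjamini-Hochberg adjustment over all tested probe sets, and single genes by exact permutation. The fit was tested on simulated data. The members and gene lists were chosen with earlier results of these data known. Every member was named. Receptors, ligands, Hes/Hey factors and any other member with an unadjusted p under 0.05 or non-overlapping groups were given in every pool. Lfng, Mib1, Numbl, Nrarp, Neurog1, Dtx3, Pofut1, Kat2a, Tle2, the named tissue markers and the second probe set of Maml2 were added after their values were seen. The limma p-values set each difference in means against the spread between pools, moderated over all tested probe sets. The number of pools limits the precision. Markers of neurons and heart were also summed: neurons (11 genes) ran from 2031 to 2102 in knockouts and from 2101 to 2211 in heterozygotes, and heart (15 genes) from 20428 to 21960 in knockouts and from 20671 to 22600 in heterozygotes. At an unadjusted p under 0.05 in limma, no marker of either list was higher, against 5.97% of all probe sets. Map2 and Isl1 were lower, 2 of 11 neuron markers or 18.2%, against 4.66%. Gata4, Hand2 and Tbx5 were lower, 3 of 15 heart markers or 20.0%. Groups did not overlap downward for 3 neuron markers (27.3%) and 1 heart marker (6.67%), against 9.03%. None passed an adjusted p of 0.05, and their part in the pathway values was not tested. Rows that name Notch4 together with another gene were not used. Some genes of the lists are not reported here. Alternatives are given at the end.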

Additional observations from a re-analysis of the deposited data

How the results depend on the processing

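No pathway gene passed an adjusted p of 0.05 in limma under any alternative, where the smallest adjusted p was 0.311, without dim probe sets. At an unadjusted p under 0.05, the count of genes with a higher mean, 2 in the fit reported, was 1 with limma trend and robust, without dim probe sets (23 genes left), over all rows and with array weights, and 0 with the Y-linked covariate. It stayed at 2 after quantile normalization, after cyclic loess and with the replicate block, but with Notch1 in place of Jag2. The count with a lower mean, also 2, was 1 over all rows, with array weights and with the replicate block, and 0 after quantile normalization, after cyclic loess and with the Y-linked covariate. Hes5 had a higher mean at this p in each of these fits but the covariate fit. The cause of these shifts was not tested. Leaving out 1 pool gave 0 to 3 higher and 0 to 2 lower, and counts of groups without overlap from 4 to 10, which rise by construction with fewer pools. That count was 5 after quantile normalization and after cyclic loess, against 3. It was not computed with array weights, the block or the covariate, which leave the values of the pools as they are. The median change stayed between -0.030 and 0.020. In the 4 pools with a high Y-linked level, chosen after seeing the data, a lone heterozygote was left, so that only sizes are given. There Jag2 was at 0.23, Hes5 at 0.15, Hes1 at -0.23 and Numb at -0.13. The sign of the change differed from the fit reported for up to 14 genes (the covariate fit and the 4 pools with a high Y-linked level). The largest value after such a switch was that of Nrarp, at -0.115 with the covariate and -0.161 in the 4 pools. In the covariate fit and the other fits with more than 1 pool per genotype, no gene that switched sign had an unadjusted p under 0.05. Same-numbered pools deviated from their group means with correlations of 0.001, 0.106 and -0.013, beside -0.083 to 0.08 for the other pairs. These values cannot tell whether the replicate numbers pair the pools. With the replicate block, Notch1 and Hes5 had a higher and Numb a lower mean at an unadjusted p under 0.05, counts of 2 and 1.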
